A study of Yarrowia lipolytica with 4 samples.

Results

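The genes described here encode the enzymes of glycolysis, the pentose phosphate pathway, the branches at pyruvate and the tricarboxylic acid (TCA) cycle of Yarrowia lipolytica, an oil-storing yeast. They were chosen by words in the annotation text of the deposited table, such as hexokinase, aldolase, aconit or malate dehydrogenase, and not by any measured value. The choice was, however, made with earlier results of these data known. The words matched 47 of 6447 protein-coding genes. Of these, 33 are annotated with a step of central carbon metabolism: 13 of glycolysis, 7 at pyruvate, 4 of the pentose phosphate pathway and 9 of the TCA cycle. The other 14 carry the same words in the name of an enzyme of another pathway, or of none that the text names, and are described apart from the 33.

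Polyadenylated RNA was sequenced from 2 strains to ask how expression differs when SUR2, the C4-hydroxylase of sphingoid bases, is missing. The background of both is PO1f, a laboratory background auxotrophic for leucine and uracil, and both carry the disruption written ku70Δ::tc, in a gene for the end joining of DNA breaks. The strain with this disruption alone (labelled WT) is called the parent, and the sur2 strain also has LEU2 in place of SUR2. Effects of the missing SUR2 and of the added LEU2 therefore cannot be told apart. Cells of both were harvested from rich YPD medium at an OD600 of 0.8 and 28 °C, and each strain had 2 libraries, not stated to be separate cultures. The spread behind every p-value is that between libraries, and it may be technical.

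Glycolysis splits glucose into pyruvate, and its flow is set mainly at hexokinase or glucokinase, phosphofructokinase and pyruvate kinase. The pentose phosphate pathway branches off at glucose 6-phosphate and yields NADPH, which fatty acid synthesis consumes, and sugars for nucleotides. Pyruvate enters the mitochondrion and is oxidised by pyruvate dehydrogenase to acetyl-CoA, which the TCA cycle burns. In oil-storing yeasts citrate that leaves the cycle is cut in the cytosol to acetyl-CoA for lipid, and Y. lipolytica respires sugar with little fermentation to ethanol.

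The deposited values sit in a transcript table and a gene table, with 1 parent and 1 deletion library apiece. The libraries of a strain thus also differ in deposited table, and library and table cannot be told apart. Paired values below always run in the order transcript table, gene table. The parent libraries held 16585818 and 13972149 counts and the deletion libraries 16698719 and 8765729 counts. SUR2 (YALI0_E17347g) had 1402 and 1319 reads in the parent, against 0 and 0 in the sur2 strain, which matches the labels. KU70 (YALI0_C08701g), labelled as disrupted in both, still had 89 and 23 reads in the parent, against 52 and 14 in the sur2 strain. Every one of the 47 members passed the filter on low counts, and the lowest count of any of the 33 central enzymes in a library was 163. Levels are given as CPM, the read count relative to library size scaled by trimmed-mean (TMM) factors, for comparisons between strains, and as the authors' TPM, which is also scaled for transcript length, for comparisons between genes. The ± of a level is its SD (n = 2 libraries), and that of a log2 fold change, deletion minus parent, is its standard error.

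As a group the central enzymes were well expressed, and none of them differed between the strains past the threshold. By mean TPM in the parent, 29 of the 33 lay above the median protein-coding gene (24.7 TPM) and 20 were among the 500 most abundant genes. With edgeR's quasi-likelihood test, adjusted by the Benjamini-Hochberg method over 6051 genes, 0 of the 47 members passed an adjusted p of 0.05, against 1.24% of all genes tested. At an unadjusted p under 0.05 edgeR gave 6 of the 47, against 12.4% of all genes: 1 higher (8.4% of all genes) and 5 lower (4.03%). DESeq2 called 4 of the 47 (6.38% of all genes), 1 central enzyme and 3 of the others, and limma called 0 on log2(TPM + 1) and on log2(TPM + 0.1) (2.94% and 3.37% of all genes). edgeR also called 0 of the 47 with the deposited table as a term (2.4% of all genes), with no filter on low counts (1.5%) and without the gene-table deletion library (3.34%). Without the transcript-table deletion library it called 7 of the 47 (11.2% of all genes). A fit that leaves out 1 library takes its spread from the strain that keeps 2 and assumes that the lone library of the other varies likewise. The median log2 fold change was 0.02 over the 33 and 0.03 over all genes tested, and the median standard error of the 33 was 0.46. In 23 of the 33 the libraries of the strains overlapped (69.7%, against 57.7% of all genes). In the other 10 they did not, against 42.3% of all genes. In 7 both deletion libraries lay above both parent libraries (21.2%, against 22.1% of all genes). In 3 they lay below (9.09%, against 20.2% of all genes).

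**Figure D1:**
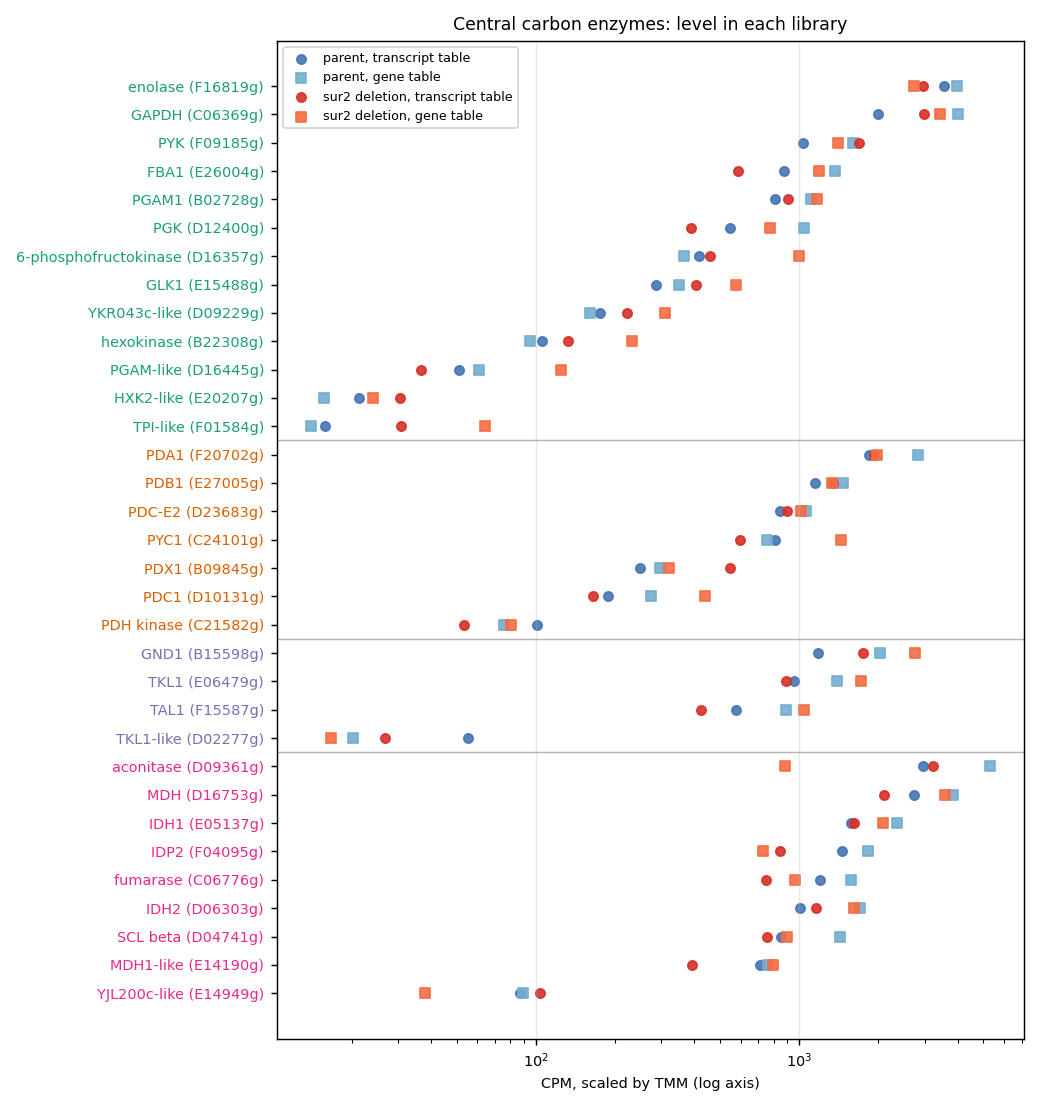
Level of each of the 33 central carbon enzymes in the 4 libraries, as TMM-scaled CPM on a log axis; circles are the transcript table, squares the gene table, blue the parent and red or orange the sur2 deletion strain. Genes are grouped by role and sorted by parent mean, and for 23 of the 33 the blue and red points overlap.

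The 4 kinase genes at the top of glycolysis lay higher in both deletion libraries than in both parent libraries, as did 22.1% of all genes. Each difference was less than the test could call. The 4 are part of the 13 glycolytic genes, of which 6 lay higher in this way. Hexokinase (YALI0_B22308g, chromosome B, 2934434 to 2936474), which phosphorylates glucose and fructose, was at 105 and 95.2 CPM in the parent, against 132 and 232 CPM in the sur2 strain. Its log2 fold change was 0.86 ± 0.39 (1.82-fold, edgeR adjusted p = 0.43). The gene-table deletion library was the highest of the 4, and that of the transcript table lay close to the parent. The 6-phosphofructokinase gene (YALI0_D16357g, chromosome D, 2024128 to 2026989), whose enzyme commits the sugar to glycolysis, was at 417 and 366 CPM in the parent, against 458 and 999 CPM in the sur2 strain. Its log2 fold change was 0.90 ± 0.49 (edgeR adjusted p = 0.535), made of 0.13 within the transcript table and 1.45 within the gene table. Here too 1 deletion library carried nearly all of the difference. Glucokinase GLK1 (YALI0_E15488g), specific for glucose, was at 318 ± 46.6 CPM in the parent, against 489 ± 120 CPM in the sur2 strain (log2 fold change 0.62 ± 0.42). A gene weakly similar to hexokinase II (YALI0_E20207g) was at 18.5 ± 3.97 and 27.4 ± 4.56 CPM (log2 fold change 0.56 ± 0.41). For both of these the ratios within the 2 tables were alike, 0.50 and 0.71 for GLK1 and 0.52 and 0.61 for the hexokinase II relative. Adjusted p was 0.636 and 0.672 in edgeR. Per transcript length GLK1 was the most abundant of the 3 hexose kinases in all 4 libraries, 2.81 to 4.19 times as high in TPM as hexokinase.

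The 6-carbon and 3-carbon steps below phosphofructokinase showed no common shift. Glyceraldehyde-3-phosphate dehydrogenase (GAPDH, YALI0_C06369g, chromosome C, 826767 to 827929), which makes the NADH of glycolysis, was at 1998 and 3996 CPM in the parent, against 2978 and 3417 CPM in the sur2 strain. Both deletion libraries lay between the parent libraries, and the log2 fold change was 0.09 ± 0.50 (edgeR adjusted p = 0.973). Enolase (YALI0_F16819g, chromosome F, 2247810 to 2249572), which forms phosphoenolpyruvate, was at 3561 and 3976 CPM in the parent, against 2962 and 2740.4 CPM in the sur2 strain. It was the only glycolytic member with both deletion libraries below both parent libraries, at a log2 fold change of -0.40 ± 0.44 (edgeR adjusted p = 0.812). Those of fructose-bisphosphate aldolase FBA1 (YALI0_E26004g), at 1124 ± 347 CPM in the parent, and phosphoglycerate kinase (YALI0_D12400g), at 794 ± 350 CPM, were -0.34 ± 0.51 and -0.45 ± 0.53. Those of phosphoglycerate mutase 1 (YALI0_B02728g), at 959 ± 214 CPM in the parent, and pyruvate kinase (YALI0_F09185g), at 1319 ± 404 CPM, were 0.11 ± 0.44 and 0.23 ± 0.45. For these 4 genes the libraries of the strains overlapped. Pyruvate kinase makes the last step of glycolysis, and its ratio differed in sign between the tables, 0.71 (transcript table) against -0.19 (gene table).

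The glycolytic gene with the smallest p was a second gene of triosephosphate isomerase type, expressed at a low level. YALI0_F01584g (chromosome F, 247294 to 248133, minus strand) is annotated by similarity to a putative triosephosphate isomerase of the bacterium Streptomyces coelicolor. It was at 15.9 and 14.0 CPM in the parent, against 30.7 and 64.4 CPM in the sur2 strain. Both deletion libraries were higher than both parent libraries, with a log2 fold change of 1.67 ± 0.46 (3.18-fold, edgeR adjusted p = 0.172). DESeq2 called it (adjusted p = 0.0284), and over all alternatives its adjusted p ran from 4.79e-04 to 0.847. The main triosephosphate isomerase TPI1 (YALI0_F05214g), which interconverts the 3-carbon sugars of glycolysis, is spelled with a hyphen in the annotation and so was not matched. It was at 1030.3 ± 322 CPM in the parent, against 881 ± 304 CPM in the sur2 strain (log2 fold change -0.23 ± 0.48), and per length it was 20.2 to 107 times as abundant in TPM as the low-level gene.

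The low-level isomerase gene lies beside genes that passed the test. The next gene on chromosome F, YALI0_F01606g, is annotated as dihydroxyacetone kinase, whose enzyme makes a substrate of triosephosphate isomerase. It was at 0.583 and 0.423 CPM in the parent, against 14.4 and 38.2 CPM in the sur2 strain (edgeR adjusted p = 0.017). YALI0_F01628g, similar to an undescribed gene of Debaryomyces hansenii, rose from 0.233 and 0.592 to 17.2 and 36.9 CPM (edgeR adjusted p = 0.0147). YALI0_F01650g, weakly similar to the dienoyl-CoA reductase SPS19, rose from 1.4 and 3.47 to 54 and 108 CPM (edgeR adjusted p = 0.0147). Further along, YALI0_F01672g and YALI0_F01694g were also higher in both deletion libraries (log2 fold change 1.69 ± 0.61 and 0.83 ± 0.44), but edgeR did not call them (adjusted p = 0.29 and 0.51). On the other side YALI0_F01562g, weakly similar to a nitrogen regulator of Neurospora crassa, had overlapping libraries (log2 fold change -0.47 ± 0.49). So had YALI0_F01540g and YALI0_F01518g, while YALI0_F01496g and YALI0_F01474g were lower in both deletion libraries (-0.45 ± 0.38 and -0.30 ± 0.49). These neighbours were picked with their values known.

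**Figure D2:**
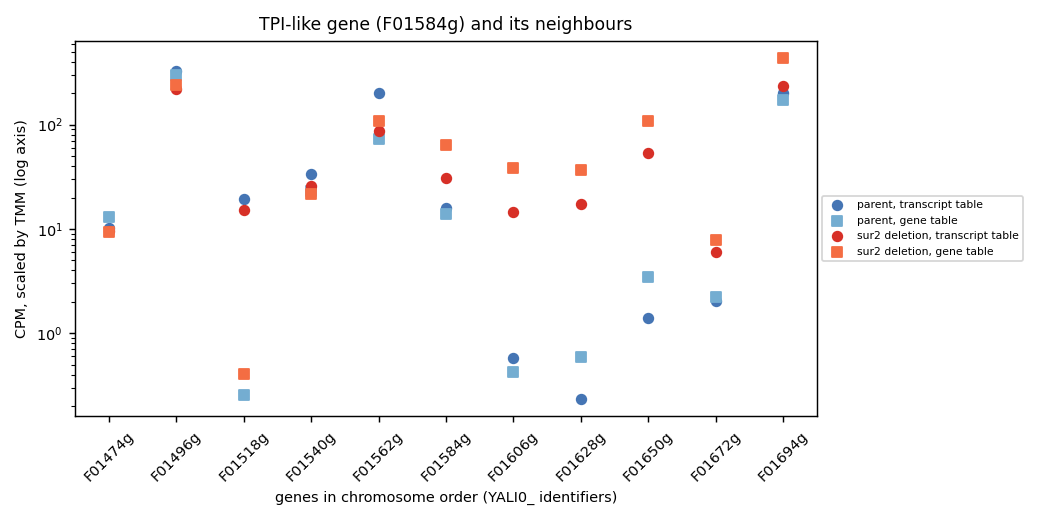
TMM-scaled CPM (log axis) of the low-level triosephosphate isomerase gene YALI0_F01584g and the 5 protein-coding genes on each side of it, in chromosome order, with 1 point per library. The 3 genes just to its right are below 4 CPM in both parent libraries and above 14 CPM in both deletion libraries.

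Of the 2 other genes with phosphoglycerate mutase in their text, 1 had libraries that did not overlap, against 42.3% of all genes. YALI0_D09229g is weakly similar to YKR043c of Saccharomyces cerevisiae, where that gene is now known as SHB17, a sedoheptulose bisphosphatase. It was at 174 and 160.03 CPM in the parent, against 222 and 310.1 CPM in the sur2 strain. The deletion libraries were the higher ones in both tables, and the log2 fold change was 0.67 ± 0.38 (edgeR adjusted p = 0.556). YALI0_D16445g, weakly similar to a putative mutase of Schizosaccharomyces pombe, was at 55.9 ± 7.01 and 80.7 ± 62.5 CPM (log2 fold change 0.53 ± 0.55), with ratios of -0.48 and 1.03 in the 2 tables. Phosphoglycerate mutase 1 stood far above both in TPM, 3.73 to 6.9 times and 11.2 to 29.8 times as high.

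Over the 13 glycolytic members 10 log2 fold changes were above 0 and 3 below, and the median was 0.53. The 13 include the YKR043c relative because of its annotation text, although SHB17 is a sedoheptulose bisphosphatase. In 6 of the 13 both deletion libraries were higher (46.2%, against 22.1% of all genes), and in 1 both were lower (7.69%, against 20.2%). Leaving out 1 library gave 7 to 12 above 0, and without the gene-table deletion library the median was 0.22. On log2(TPM + 1), where the median of all genes was 0.39, 10 of the 13 lay above that median. Those 6 were hexokinase, GLK1, the hexokinase II relative, 6-phosphofructokinase, the YKR043c relative and the low-level isomerase. On average in the parent they stood between 14.9 and 391 CPM. The 6 that carry the flow from FBA1 to pyruvate kinase, at 794 to 3768 CPM, had log2 fold changes between -0.45 and 0.23. Across all 33 central enzymes Spearman's rho between parent TPM and log2 fold change was -0.43, and across the 6051 genes it was -0.28 with parent CPM; these are descriptions across genes that share libraries, and a parent level enters both measures.

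Glucose-6-phosphate isomerase and the enzymes of the reverse pathway were taken from a list of 6 other genes of glycolysis and gluconeogenesis. Phosphoenolpyruvate carboxykinase PCK1 (YALI0_C16995g), the enzyme that opens gluconeogenesis, was the only one of the 6 past edgeR's test, against 1.24% of all genes (0.248% lower). Its level fell from 2234 and 1887 CPM to 333 and 140 CPM (8.72-fold, log2 fold change -3.12 ± 0.56, edgeR adjusted p = 0.0433). Without the transcript-table or the gene-table parent library its adjusted p was 0.561 or 0.588, at log2 fold changes of -3.04 and -3.24. In TPM pyruvate kinase stood at 0.505 and 0.93 times the level of PCK1 in the parent, against 5.54 and 11.02 times in the sur2 strain, so the order of the 2 genes differed between strains in each table. Fructose-1,6-bisphosphatase (YALI0_A15972g), which reverses phosphofructokinase, was at 617 ± 144 and 397 ± 14.7 CPM (log2 fold change -0.64 ± 0.42), with no overlap of the libraries. In TPM 6-phosphofructokinase was at 0.248 and 0.153 times its level in the parent, against 0.36 and 0.735 times in the sur2 strain. Glucose-6-phosphate isomerase PGI1 (YALI0_F07711g) had a log2 fold change of 0.63 ± 0.52, and phosphoglucomutase (YALI0_E02090g), which links glycolysis to glycogen, one of -0.07 ± 0.45. The 2 genes related to the enzymes of fructose 2,6-bisphosphate, an activator of phosphofructokinase, were FBP26 (YALI0_E17633g) at -0.26 ± 0.36 and YALI0_D21010g at -0.18 ± 0.34. In 3 of the 6, PCK1, fructose-1,6-bisphosphatase and FBP26, both deletion libraries lay below both parent libraries (50%, against 20.2% of all genes).

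At pyruvate, the core subunits of pyruvate dehydrogenase differed between the strains by less than their error. Of the 7 genes here edgeR and DESeq2 gave 0 at an unadjusted p under 0.05 (in edgeR 12.4% of all genes). The alpha chain PDA1 (YALI0_F20702g, chromosome F, 2761593 to 2763102) was at 1834 and 2816 CPM in the parent, against 1916 and 1968 CPM in the sur2 strain. The beta chain PDB1 (YALI0_E27005g, chromosome E, 3199624 to 3200616) was at 1152 and 1474 CPM in the parent, against 1341 and 1329 CPM in the sur2 strain. In both genes the deletion libraries lay between the parent libraries. Their log2 fold changes were -0.26 ± 0.46 and 0.02 ± 0.43, and that of the acetyltransferase core (YALI0_D23683g), at 953 ± 148 CPM in the parent, was 0.0087 ± 0.42. In TPM the alpha chain was 1.15 to 1.53 times as high as the beta chain and 2.19 to 3.01 times as high as the acetyltransferase over the 4 libraries. Protein X, PDX1 (YALI0_B09845g, chromosome B, 1339278 to 1341415), which docks dihydrolipoamide dehydrogenase to the core, was at 248 and 296 CPM in the parent, against 544 and 320.5 CPM in the sur2 strain. Its deletion libraries were both higher, with most of the difference in the transcript table (ratios 1.13 and 0.11) and a log2 fold change of 0.67 ± 0.43 (edgeR adjusted p = 0.62). The acetyltransferase stood at 3.18 and 3.32 times the TPM of PDX1 in the parent, against 1.54 and 2.95 times in the sur2 strain. The kinase that switches the complex off by phosphorylation (YALI0_C21582g, chromosome C, 2895431 to 2897125) was at 101 and 75.9 CPM in the parent, against 53.1 and 80.3 CPM in the sur2 strain. These libraries overlapped, at a log2 fold change of -0.41 ± 0.38 (edgeR adjusted p = 0.767).

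The enzymes that use pyruvate in other ways were high in 1 deletion library and not in the other. Pyruvate carboxylase PYC1 (YALI0_C24101g, chromosome C, 3224226 to 3228070), which refills the TCA cycle with oxaloacetate, was at 807 and 752 CPM in the parent, against 594 and 1437 CPM in the sur2 strain. Pyruvate decarboxylase PDC1 (YALI0_D10131g, chromosome D, 1283067 to 1284782), which leads towards ethanol and cytosolic acetate, was at 188 and 274 CPM in the parent, against 165 and 439.9 CPM in the sur2 strain. In both genes the transcript-table deletion library was the lowest of the 4 and the gene-table one the highest. Their log2 fold changes were 0.38 ± 0.52 and 0.39 ± 0.53 (edgeR adjusted p = 0.857 for each). Without the gene-table deletion library they were -0.39 and -0.49, and they were 0.88 and 0.93 without the other deletion library. Pyruvate dehydrogenase PDA1 exceeded PDC1 in TPM in every library, by 6.96 to 18.0 times.

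In the pentose phosphate pathway 0 of the 4 members had libraries that separated the strains, against 42.3% of all genes. At an unadjusted p under 0.05 edgeR and DESeq2 gave 0 of the 4 (in edgeR 12.4% of all genes). The 6-phosphogluconate dehydrogenase GND1 (YALI0_B15598g, chromosome B, 2068719 to 2070920), which yields NADPH, was at 1184 and 2022 CPM in the parent, against 1741 and 2759 CPM in the sur2 strain. Within each table the deletion library was the higher, by 0.56 and 0.45 on the log2 scale, but the tables differed more, and the log2 fold change was 0.49 ± 0.50 (edgeR adjusted p = 0.793). Transketolase TKL1 (YALI0_E06479g, chromosome E, 738789 to 741216), which moves 2-carbon units between sugars, was at 955 and 1389 CPM in the parent, against 894 and 1717 CPM in the sur2 strain (log2 fold change 0.16 ± 0.50). Transaldolase TAL1 (YALI0_F15587g, chromosome F, 2095358 to 2096575), which moves 3-carbon units, was at 577 and 889 CPM in the parent, against 424 and 1041 CPM in the sur2 strain (log2 fold change -0.0017 ± 0.54). For both, the gene-table library was the higher one in each strain. A gene weakly similar to transketolase (YALI0_D02277g, chromosome D, 262480 to 263523) was low, at 55.2 and 20.2 CPM in the parent, against 26.6 and 16.7 CPM in the sur2 strain (log2 fold change -0.80 ± 0.54, edgeR adjusted p = 0.636). TKL1 was 7.74 to 45.3 times as high in TPM.

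The other pentose phosphate genes on the list, 3 in number, had log2 fold changes above 0. The edgeR and DESeq2 tests each called 0 of the 3 (1.24% and 6.38% of all genes). At an unadjusted p under 0.05 edgeR gave 0 of the 3, against 12.4% of all genes, and DESeq2 gave 1. The DESeq2 share of all genes at that cut is not given here, so its count cannot be weighed. Glucose-6-phosphate dehydrogenase ZWF1 (YALI0_E22649g), the entry enzyme and other NADPH source, was at 319 and 348 CPM in the parent, against 465 and 802 CPM in the sur2 strain. Both deletion libraries were higher, at a log2 fold change of 0.92 ± 0.45 (edgeR adjusted p = 0.468). Ribulose-phosphate epimerase (YALI0_C11880g) also had libraries that did not overlap (log2 fold change 0.40 ± 0.37), and the lactonase SOL3 (YALI0_E11671g) had one of 0.28 ± 0.37. The ribose-5-phosphate isomerase RKI1 (YALI0_B06941g), spelled otherwise in the annotation and added after the text was read, had one of -0.23 ± 0.41.

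**Figure D3:**
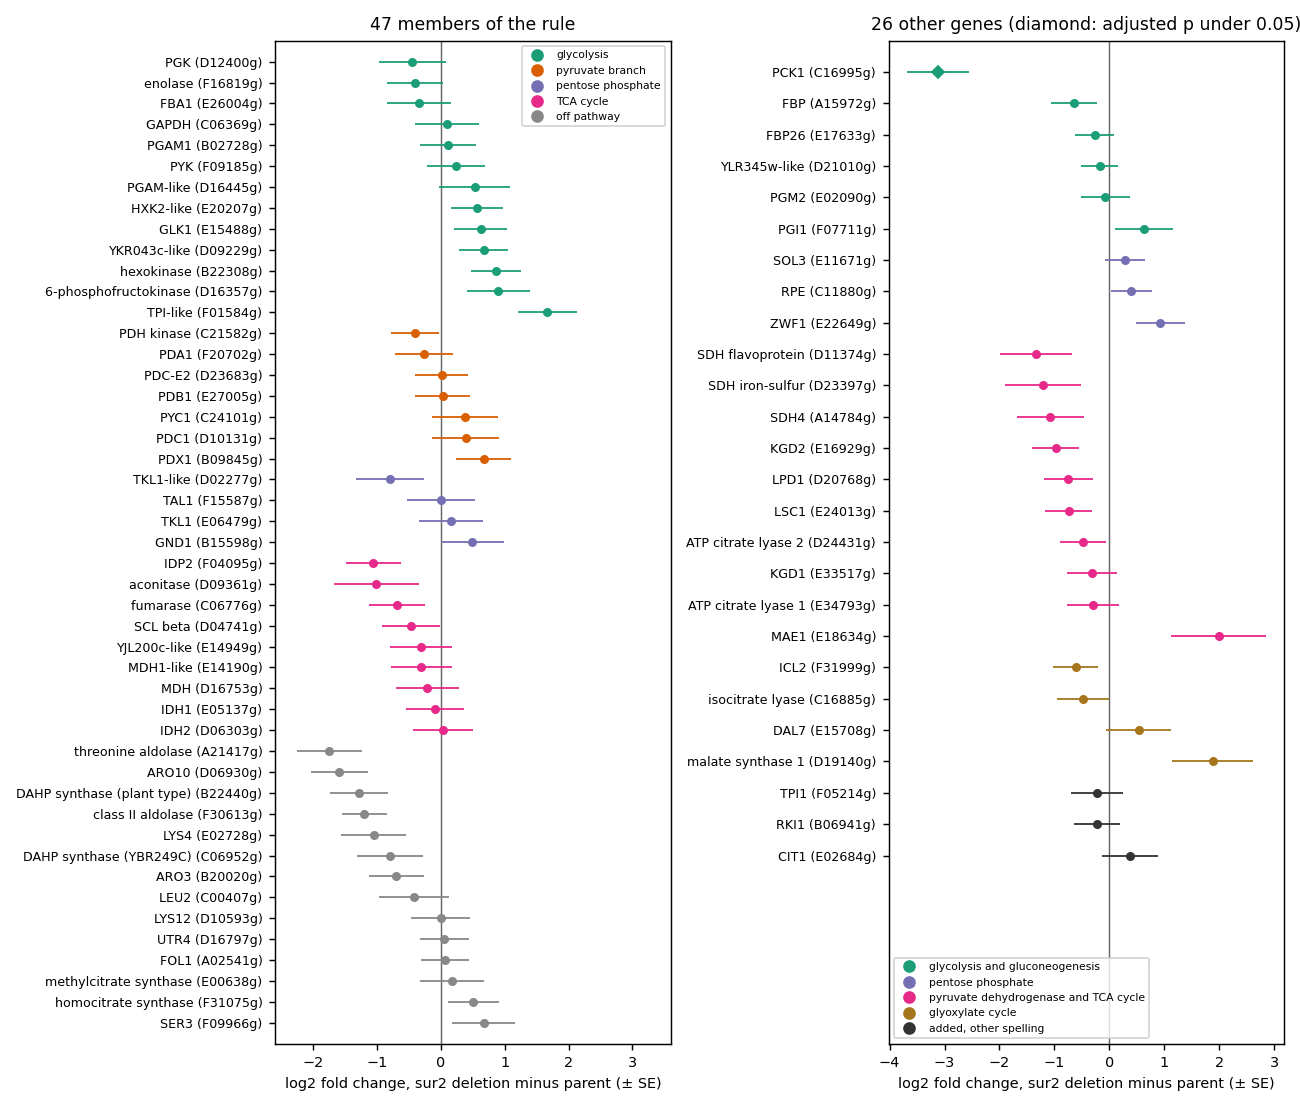
Log2 fold change (deletion minus parent) with its standard error for the 47 members, grouped by role (left), and for 26 other genes of the same pathways (right); the diamond marks the gene past an adjusted p of 0.05 in edgeR. Only PCK1 passed, and 8 of the 9 TCA cycle members and 9 of the 10 other pyruvate dehydrogenase and TCA cycle genes lie below 0 (on log2(TPM + 1), 5 of 9 and 7 of 10).

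In the TCA cycle 8 of the 9 members had a log2 fold change below 0, with a median of -0.31. The edgeR and DESeq2 tests each called 0 of the 9 (1.24% and 6.38% of all genes). In each test 1 of the 9 had an unadjusted p under 0.05 (in edgeR 12.4% of all genes). Without the transcript-table deletion library 5 of the 9 were below 0, and on log2(TPM + 1) 8 of the 9 lay below the median of all genes (0.39) and 5 below 0. The NADP-dependent isocitrate dehydrogenase IDP2 (YALI0_F04095g, chromosome F, 618413 to 619663), a source of NADPH, was at 1457 and 1821 CPM in the parent, against 843 and 726 CPM in the sur2 strain. Both deletion libraries were lower in both tables, at a log2 fold change of -1.06 ± 0.43 (2.09-fold, edgeR adjusted p = 0.359). Fumarase (YALI0_C06776g, chromosome C, 903864 to 905333), which hydrates fumarate to malate, was at 1200 and 1569 CPM in the parent, against 749 and 964 CPM in the sur2 strain. It too was lower in both deletion libraries, by similar ratios of -0.68 and -0.70 in the 2 tables (log2 fold change -0.69 ± 0.44, edgeR adjusted p = 0.606). These were the only 2 of the 9 whose libraries did not overlap (22.2%, against 20.2% of all genes).

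Aconitase (YALI0_D09361g, chromosome D, 1198167 to 1200860), the iron-sulfur enzyme that isomerises citrate, was at 2962 and 5326 CPM in the parent, against 3215 and 883 CPM in the sur2 strain. The gene-table deletion library stood apart from the other 3, with a ratio of -2.59 within its table against 0.12 within the transcript table. The log2 fold change over both was -1.02 ± 0.67 (edgeR adjusted p = 0.625). Leaving out the transcript-table deletion library gave -2.23 with edgeR (adjusted p = 0.0214), in a fit where the library that stands apart is the only deletion library, and the adjusted p reached 0.994 in the alternatives. A second aconitate hydratase gene, similar to YJL200c (YALI0_E14949g), was at 87.3 and 89 CPM in the parent, against 104 and 38.1 CPM in the sur2 strain. Its libraries split in the same way, 0.25 within the transcript table and -1.22 within the gene table (log2 fold change -0.31 ± 0.48). Aconitase was 23.6 to 60.8 times as high in TPM as that gene. That gene-table deletion library was also the shallowest of the 4, and the part that depth played was not tested.

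The remaining matched members of the cycle had levels that overlapped between strains. Malate dehydrogenase (YALI0_D16753g, chromosome D, 2071817 to 2072833), which regenerates oxaloacetate, had the highest mean TPM of the 33 enzymes in the parent (1985 and 2091 TPM, rank 105 of all protein-coding genes by the mean). In the gene-table parent library alone GAPDH was higher, at 2171 TPM. In CPM it was at 2738 and 3849 in the parent, against 2106 and 3574 in the sur2 strain (log2 fold change -0.21 ± 0.49). The other gene of this enzyme, similar to MDH1 (YALI0_E14190g), was at 736 ± 37.8 and 594 ± 286 CPM (log2 fold change -0.31 ± 0.48), and the first exceeded it 3.76 to 5.23 times in TPM. The NAD-dependent isocitrate dehydrogenase has 2 kinds of subunit. IDH1 (YALI0_E05137g, chromosome E, 566943 to 568560) was at 1573 and 2362 CPM in the parent, against 1620 and 2074 CPM in the sur2 strain, and IDH2 (YALI0_D06303g) was at 1358 ± 490 and 1387 ± 330 CPM. Their log2 fold changes were -0.09 ± 0.46 and 0.03 ± 0.47, and their TPM ratio stayed within 1.29 to 1.57 over the 4 libraries. IDP2 stood at 0.794 and 0.659 times the TPM of IDH1 in the parent, against 0.445 and 0.299 times in the sur2 strain. The beta chain of succinyl-CoA ligase (YALI0_D04741g, chromosome D, 585895 to 587663) was at 854 and 1432 CPM in the parent, against 756 and 896 CPM in the sur2 strain (log2 fold change -0.47 ± 0.46, edgeR adjusted p = 0.782). In TPM the beta chain was 0.923 to 1.38 times as high as the alpha chain LSC1 (YALI0_E24013g).

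The 10 other genes of pyruvate dehydrogenase and the TCA cycle on the fixed list gave 9 log2 fold changes below 0 and a median of -0.74. The edgeR and DESeq2 tests each called 0 of the 10 (1.24% and 6.38% of all genes). At an unadjusted p under 0.05 edgeR gave 0 of the 10, against 12.4% of all genes. DESeq2 gave 5 at that cut, for which its share of all genes is not given here, so the 5 cannot be weighed. On log2(TPM + 1) 9 of the 10 lay below the median of all genes and 7 below 0. In 7 of the 10 both deletion libraries lay below both parent libraries, against 20.2% of all genes. The 3 succinate dehydrogenase subunits, which feed the respiratory chain, were among them. The flavoprotein gene (YALI0_D11374g) was at 1070 and 1529 CPM in the parent, against 826 and 202 CPM in the sur2 strain, at a log2 fold change of -1.34 ± 0.66. The iron-sulfur subunit (YALI0_D23397g) and the anchor SDH4 (YALI0_A14784g) had ones of -1.21 ± 0.69 and -1.07 ± 0.61. All 3 showed the pattern of aconitase, with transcript-table ratios of -0.37, -0.39 and -0.30 but gene-table ratios of -2.92, -2.89 and -2.46, and all 3 passed edgeR's test without the transcript-table deletion library (adjusted p = 6.17e-04, 1.54e-04 and 7.68e-04). That fit rests on the gene-table deletion library alone and called 4 of the 10 genes and 11.2% of all genes; without the gene-table one the log2 fold changes were -0.65, -0.47 and -0.41. The other 4 were the succinyltransferase KGD2 (YALI0_E16929g, -0.97 ± 0.43), LSC1 (-0.74 ± 0.43), dihydrolipoamide dehydrogenase LPD1 (YALI0_D20768g, -0.75 ± 0.44) and subunit 2 of ATP citrate lyase (YALI0_D24431g, -0.48 ± 0.42), the enzyme that cuts citrate for lipid synthesis. LPD1 is shared by the pyruvate and the oxoglutarate complex, and KGD1 (YALI0_E33517g), the other oxoglutarate gene, had a log2 fold change of -0.32 ± 0.46 with overlapping libraries. Subunit 1 of ATP citrate lyase (YALI0_E34793g) had one of -0.30 ± 0.47.

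The exception above 0 was malic enzyme MAE1 (YALI0_E18634g), which converts malate to pyruvate. It was at 9.86 and 20.1 CPM in the parent, against 12.4 and 107 CPM in the sur2 strain (log2 fold change 1.99 ± 0.87, edgeR adjusted p = 0.404). It passed without the transcript-table deletion library (log2 fold change 2.83, edgeR adjusted p = 3.27e-07), and without the gene-table one the log2 fold change was -0.27. Citrate synthase CIT1 (YALI0_E02684g), the entry to the cycle, is spelled citrate (si)-synthase in the annotation and was added after the text was read. It was at 1405 and 2408 CPM in the parent, against 1776 and 3158 CPM in the sur2 strain (log2 fold change 0.37 ± 0.51). In TPM it stood at 0.848, 0.815 and 0.991 times the level of aconitase in the parent libraries and the transcript-table deletion library, and at 6.46 times in the gene-table deletion library.

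The glyoxylate cycle, which bypasses the steps of the TCA cycle that release carbon dioxide, was represented by 4 genes. The edgeR and DESeq2 tests each called 0 of them (1.24% and 6.38% of all genes). In each test 1 of the 4 had an unadjusted p under 0.05 (in edgeR 12.4% of all genes). Isocitrate lyase (YALI0_C16885g) and the ICL2 relative (YALI0_F31999g) had log2 fold changes of -0.48 ± 0.48 and -0.61 ± 0.41. The malate synthase genes YALI0_D19140g and DAL7 (YALI0_E15708g) had ones of 1.88 ± 0.74 and 0.53 ± 0.58. For YALI0_D19140g the gene-table deletion library, at 88.2 CPM, was high and the other 3 lay between 13.7 and 14.25 CPM; it passed without the transcript-table deletion library (adjusted p = 2.84e-06).

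Summed over the members, the share of central carbon transcripts did not separate the strains, and its order depended on the scaling. The 33 genes held 3.15% and 3.73% of counts in the parent, against 3.11% and 4.09% in the sur2 strain. After TMM scaling the same sums were 3.04% and 4.41% in the parent, against 3.04% and 3.67% in the sur2 strain, so within the gene table the parent was the lower by raw share and the higher after scaling. The 9 TCA cycle genes held 1.3% and 1.6% of counts in the parent, against 1.12% and 1.29% in the sur2 strain, and after scaling 1.26% and 1.89% against 1.09% and 1.16%. Both deletion libraries were below both parent libraries on either scale. Aconitase is a large part of these sums, at 2962 and 5326 CPM in the parent, against 3215 and 883 CPM in the sur2 strain. Sums without aconitase are not given here, so the separation cannot be read as one of the 9 genes as a group. Taken singly, only IDP2 and fumarase of the 9 had libraries that did not overlap. The 13 glycolytic genes held 0.99% and 1.42% after scaling in the parent, against 1.08% and 1.3% in the sur2 strain. As shares of TPM the glycolytic genes held 0.609% and 0.669% in the parent, against 0.707% and 1.02% in the sur2 strain, which do not overlap. The TCA cycle genes on that scale held 0.688% and 0.748% in the parent, against 0.606% and 0.901% in the sur2 strain, which overlap.

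**Figure D4:**
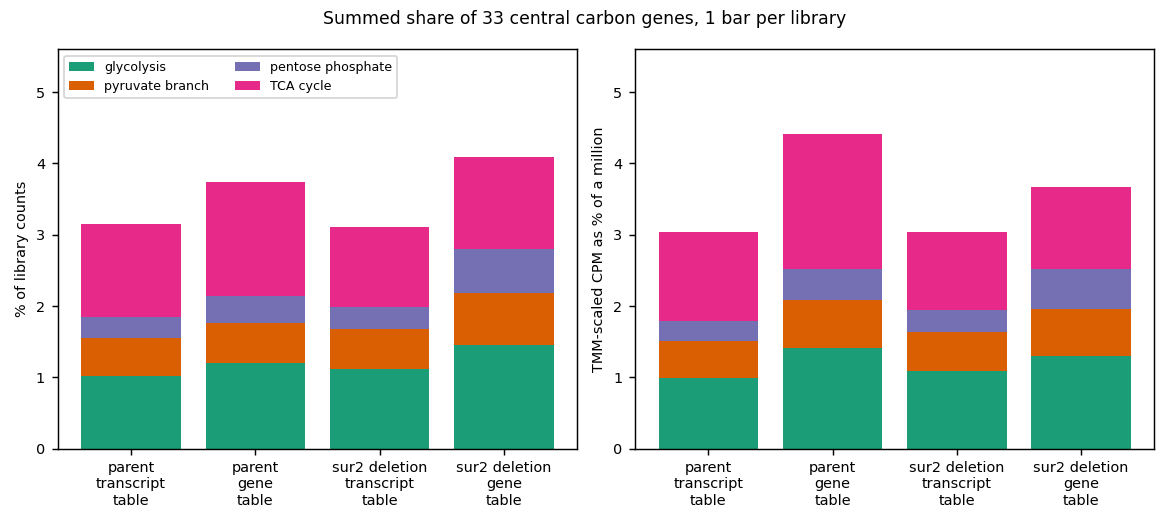
Summed share of the 33 central carbon genes in each library, stacked by role, as percent of library counts (left) and as TMM-scaled CPM in percent of scaled counts (right). The TCA cycle layer is smaller in both deletion libraries than in both parent libraries in both panels, while the whole bar overlaps between the strains. That layer includes aconitase, which was low in the gene-table deletion library alone.

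Differences between the libraries of 1 strain were as large as those between strains. Each comparison within a strain also crossed the deposited tables, so library and table cannot be told apart in it. For the 33 genes the median size of the log2 ratio was 0.44 within the transcript table and 0.45 within the gene table when deletion and parent were compared. Between the 2 parent libraries it was 0.44 and between the 2 deletion libraries 0.66. The sign of the strain ratio was the same in both tables for 17 of the 33, against 57.6% of all genes, and for 10 of the 13 glycolytic but 4 of the 9 TCA cycle genes. A ratio of at least 1 in size with the same sign in both tables was reached by 0 of the 33, against 7.11% of all genes. In the gene table alone 3 central genes were at -1 or less (11.3% of all genes) and 4 at 1 or more (15.6% of all genes). In the transcript table PDX1 alone was at 1 or more (10.8% of all genes) and the transketolase relative alone at -1 or less (5.55% of all genes). The 3 in the gene table were aconitase, IDP2 and the YJL200c relative, and the 4 were the low-level isomerase, 6-phosphofructokinase, hexokinase and YALI0_D16445g. Spearman's rho between the ratios of the 2 tables was 0.31 over the 33 genes and 0.27 over all genes, as a description across genes.

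**Figure D5:**
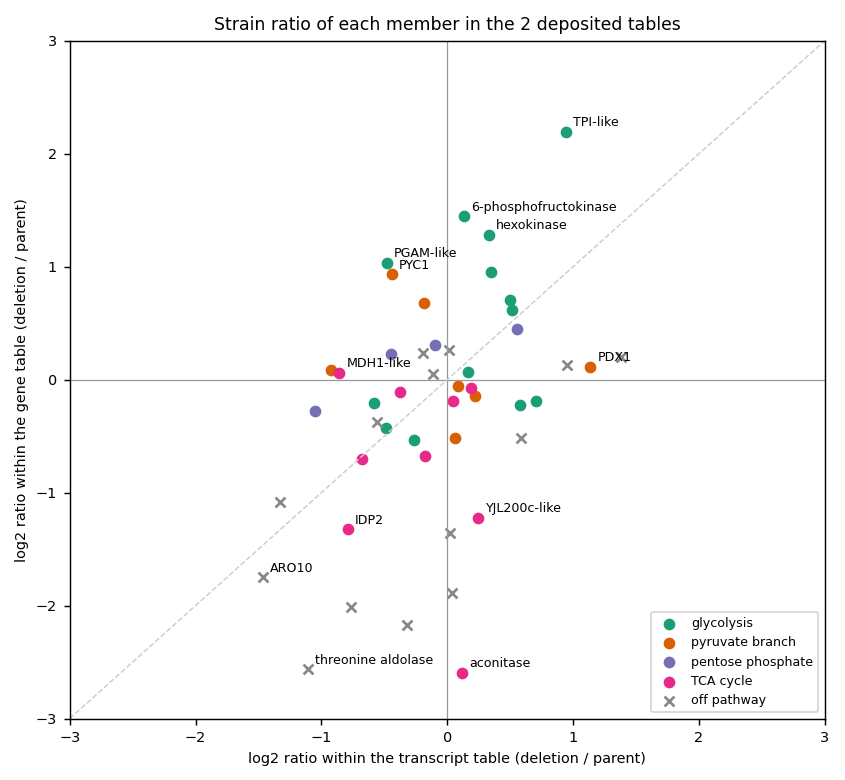
Log2 ratio of deletion to parent within the transcript table (horizontal) and within the gene table (vertical) for each of the 47 members; crosses are the 14 matches outside central carbon metabolism. None of the 33 central genes is beyond 1 in size with the same sign on both axes, and aconitase lies at 0.12 and -2.59.

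Of the 14 matches outside central carbon metabolism 9 had a log2 fold change below 0, with a median of -0.56. Here too 0 passed edgeR's test (1.24% of all genes). Leaving out 1 library gave 7 to 12 below 0, at medians of -1.02 to -0.04. On log2(TPM + 1) 9 of the 14 lay below the median of all genes (0.39) and 8 below 0. In 5 of the 14 both deletion libraries were lower (35.7%, against 20.2% of all genes), and in 2 both were higher (14.3%, against 22.1%). ARO10 (YALI0_D06930g, chromosome D, 886445 to 888247), the phenylpyruvate decarboxylase that in S. cerevisiae turns amino acid skeletons into fusel alcohols, was at 2482 and 2216 CPM in the parent, against 900.0 and 658 CPM in the sur2 strain. Both deletion libraries were far below the parent, by -1.46 and -1.75 within the tables (log2 fold change -1.59 ± 0.45, 3.02-fold, edgeR adjusted p = 0.181). Threonine aldolase (YALI0_A21417g, chromosome A, 2294548 to 2295618), which makes glycine from threonine, was at 1122 and 1468 CPM in the parent, against 522 and 248 CPM in the sur2 strain (log2 fold change -1.75 ± 0.51, edgeR adjusted p = 0.197). A class II aldolase of unnamed pathway (YALI0_F30613g, chromosome F, 3826140 to 3827036) was at 247 and 244 CPM in the parent, against 98.5 and 115 CPM in the sur2 strain (log2 fold change -1.20 ± 0.35, edgeR adjusted p = 0.199). These were the 3 of the 47 members whose ratio was at least 1 in size with the same sign in both tables, against 7.11% of all genes. DESeq2 called all 3 (adjusted p = 0.00155, 0.00341 and 0.0376), against 6.38% of all genes. The alternatives gave adjusted p-values of 0.00155 to 0.825 for ARO10, 0.00271 to 0.847 for threonine aldolase and 0.0376 to 0.825 for the class II gene.

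Genes of aromatic and lysine synthesis made up 6 of the rest. DAHP synthase makes the first intermediate of the aromatic amino acids, and 3 genes were annotated with it. The one of plant type (YALI0_B22440g) was at 279 ± 15.8 CPM in the parent, against 115 ± 61 CPM in the sur2 strain (log2 fold change -1.28 ± 0.46, edgeR adjusted p = 0.286), with no overlap. The tyrosine-inhibited form (YALI0_C06952g, -0.80 ± 0.52) and the phenylalanine-inhibited ARO3 (YALI0_B20020g, -0.70 ± 0.43) had transcript-table ratios of 0.04 and 0.02 but gene-table ratios of -1.89 and -1.36. Of the lysine genes, homoaconitase LYS4 (YALI0_E02728g) was at 170.2 ± 26.7 and 81.7 ± 56.2 CPM (log2 fold change -1.06 ± 0.50). Homo-isocitrate dehydrogenase LYS12 (YALI0_D10593g) had a log2 fold change of -0.0076 ± 0.46 and homocitrate synthase (YALI0_F31075g) one of 0.51 ± 0.40. The libraries did not overlap for LYS4, lower in the sur2 strain, or for homocitrate synthase, higher there. Without the transcript-table deletion library, which leaves the gene-table one alone in its arm, the plant-type and tyrosine-inhibited synthases and LYS4 passed (edgeR adjusted p = 0.00589, 0.0321 and 0.00287), as did ARO10 and threonine aldolase; with the low-level isomerase and aconitase that makes 7 of the 47, against 11.2% of all genes.

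Of the remaining matches only SER3 had libraries that did not overlap, against 42.3% of all genes, and edgeR did not call it. SER3 (YALI0_F09966g), the phosphoglycerate dehydrogenase that opens serine synthesis, was at 240 and 551 CPM in the parent, against 624 and 635 CPM in the sur2 strain (log2 fold change 0.67 ± 0.50). Methylcitrate synthase (YALI0_E00638g), of propionate breakdown, the folate gene FOL1 (YALI0_A02541g) and UTR4 (YALI0_D16797g), of methionine salvage, had log2 fold changes of 0.17 ± 0.50, 0.06 ± 0.38 and 0.05 ± 0.38. LEU2 (YALI0_C00407g), the isopropylmalate dehydrogenase that was used as the marker, was matched by the letters of malate dehydrogenase. Its row had 1532 and 2400 reads in the parent, against 1040 and 1528 in the sur2 strain, and a log2 fold change of -0.43 ± 0.55 with overlapping libraries. The labels say that the sur2 strain carries LEU2 in addition. This row, which spans 456 bases, was not higher there in CPM in either table (ratios -0.56 and -0.38). How much of the marker's transcript the row covers was not tested.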

How the data were processed

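The authors deposited whole-number counts and TPM values (scaled for transcript length and for library size), per the file headers. For the aligner, counter, strand setting and build the sources used here give nothing, so reads of overlapping, antisense or near-identical genes may be shared in an unknown way. Coordinates are those of the tables. The 4 RPKM columns and 1 feature were not used. The column names give the strain but no replicate number. Counts of both tables were joined by identifier, as neither table alone allows a test. A chi-square test between the libraries of a strain gave 144.8 (parent) and 292.8 (deletion) per degree of freedom, above sampling noise, so each library was 1 replicate. Depth limits precision: 3 counts, the floor for a count of 0, were 0.18 to 0.342 CPM, for counting error only.

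With edgeR 4.0.16 in R 4.3.3, filterByExpr kept 6051 genes. TMM factors were 1.034 and 0.8462 (parent) and 1.025 and 1.115 (deletion) for the transcript and gene table. The two-sided quasi-likelihood test had strain as the only term (common dispersion 0.1424, threshold 0.05). Ratios within a table are differences of log2 CPM with a prior count of 2. DESeq2 1.42.0 and limma 3.58.1 on log2(TPM + 1) and log2(TPM + 0.1) were alternatives, beside median-of-ratios size factors, no filter, the deposited table as a term and each library left out. The fits were tested on simulated data.

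The members and lists were chosen with earlier results of these data known. Roles and the other genes of the pathways were assigned from annotation text, not values. Every member is named; library values are given for the 4 of smallest p and the 2 most abundant of each role and for ratios of at least 1 in size in both tables.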

Additional observations from a re-analysis of the deposited data

How the results depend on the processing

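Over all genes edgeR called 75, 60 higher and 15 lower. DESeq2 called 386 (262 higher, 124 lower), limma on log2(TPM + 1) 178 and on log2(TPM + 0.1) 204, and edgeR with the deposited table as a term 145. Leaving out 1 library gave 0 to 685. Without the transcript-table or the gene-table parent library edgeR called 0, with 414 or 361 genes at an unadjusted p under 0.05, and without the gene-table deletion library it called 204. Of the members, 4 passed with DESeq2 and 0 to 7 when 1 library was left out. The median log2 fold change ran from -0.37 to 0.23 over the 47 and from -0.28 to 0.34 over the 33 when 1 library was left out. On TPM the median of all genes was 0.39 or 0.43, so changes there are read against that shift. No paired analysis was possible by the labels' replicate numbers because the column names do not carry them. The fit with the deposited table as a term, which called 0 of the 47 members, pairs the libraries by table. The cause of these differences was not tested.

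The acetyltransferase of pyruvate dehydrogenase (YALI0_D23683g) was at -0.011 with median-of-ratios size factors and with DESeq2, and at 0.42 on log2(TPM + 0.1), below the median of all genes there. No other member or listed pathway gene changed sign, read on TPM against the median of all genes, except when 1 library was left out. The log2 fold changes then ran, in glycolysis, from -0.94 to 0.073 (FBA1), -0.36 to 0.68 (GAPDH), -1.03 to 0.093 (phosphoglycerate kinase), -0.14 to 0.36 (phosphoglycerate mutase 1), -0.62 to 1.15 (YALI0_D16445g), -0.096 to 0.58 (pyruvate kinase), -0.081 to 1.10 (PGI1), -0.45 to 0.31 (phosphoglucomutase) and -0.63 to 0.14 (TPI1). At pyruvate they ran from -0.39 to 0.88 (PYC1), -0.58 to 0.084 (PDA1), -0.19 to 0.21 (PDB1), -0.18 to 0.18 (the acetyltransferase) and -0.49 to 0.93 (PDC1). In the pentose phosphate pathway they ran from -0.39 to 0.55 (TKL1), -1.35 to 0.057 (YALI0_D02277g), -0.79 to 0.50 (TAL1) and -0.75 to 0.16 (RKI1). In and around the TCA cycle they ran from -1.22 to 0.23 (the YJL200c relative), -0.40 to 0.23 (IDH1), -0.34 to 0.46 (IDH2), -0.91 to 0.11 (the MDH1 relative), -0.65 to 0.11 (malate dehydrogenase), -0.27 to 2.83 (MAE1), -0.72 to 0.23 (ATP citrate lyase subunit 1), -0.73 to 1.19 (DAL7) and -0.10 to 0.82 (CIT1). Outside these pathways they ran from -0.39 to 0.57 (methylcitrate synthase), -0.61 to 0.49 (LYS12), -0.30 to 0.33 (UTR4), -1.27 to 0.28 (LEU2) and -0.32 to 0.36 (FOL1).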

Other observations

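The 47 genes lie on all 6 chromosomes, with 14 on chromosome D. The closest members are malate dehydrogenase (YALI0_D16753g) and UTR4 (YALI0_D16797g), 2.0 kb and 1 gene apart, with log2 fold changes of -0.21 and 0.05. Hexokinase (YALI0_B22308g) and the plant-type DAHP synthase (YALI0_B22440g) are 9.26 kb apart, with log2 fold changes of 0.86 and -1.28. Phosphofructokinase (YALI0_D16357g) and the mutase relative YALI0_D16445g are 10.6 kb apart, and in both the gene-table deletion library is the highest of the 4.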
